A study of Mus musculus with 20 samples.

Results

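The genes described here encode the machinery that copies nuclear DNA. They were chosen by symbol: 50 genes, out of 50559 in the deposited count tables, whose products recognise replication origins, load and activate the helicase, synthesise DNA at the fork and reassemble chromatin behind it. All 50 were found in the tables, and all 50 passed the filter on low counts (at least 1 CPM, the read count scaled to the size of its library, in at least 5 libraries), among 14333 genes that did. RNA sequencing had been performed on 20 livers or liver tumors of female C57BL/6J mice that were young adults at injection, 5 in each of 4 groups. In the Aldafermin+MYC, FGF19+MYC and sgTrp53+MYC groups the plasmids were delivered by hydrodynamic tail vein injection, which reaches a subset of the hepatocytes, with the Sleeping Beauty transposase SB100X; all 3 tumor groups share MYC driven by the EF1a promoter. The FGF19+MYC mice also received human FGF19, an ileal hormone, the Aldafermin+MYC mice its engineered analog with an altered N-terminus, and the sgTrp53+MYC mice a CRISPR plasmid with a guide against the tumor suppressor gene Trp53. Liver denotes the control livers, which the sample labels call non treated and the study describes as injected with a plasmid for a red fluorescent protein. Each tumor library was made from an individual tumor of a different mouse. The treatment field of the sgTrp53+MYC samples reads none, and their condition comes from their titles.

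DNA replication is split into licensing and firing. Before S phase the origin recognition complex (ORC), with Cdc6 and Cdt1, loads the ring-shaped MCM2-7 helicase on origins, and geminin (Gmnn) blocks Cdt1 once S phase has begun. The kinase Cdc7 with its partner Dbf4, and factors such as Ticrr, then recruit Cdc45 and the GINS complex to activate the helicase; polymerase alpha with primase starts each strand, and polymerases delta and epsilon extend it on the sliding clamp Pcna, which replication factor C (RFC) loads. RPA coats single-stranded DNA, Fen1 and Lig1 join Okazaki fragments, and the CAF-1 subunits Chaf1a and Chaf1b deposit histones on the new DNA. Most hepatocytes of an adult liver are quiescent, and many of these genes are known targets of the E2F transcription factors, which are active in cycling cells.

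Promoter windows, from 250 bases before to 50 bases after the start of the gene, were available from RefSeq (build GRCm38.p6) for 41 of the 50 genes. No window was matched for Pole, Gmnn, Gins2, Gins4, Tipin, Gins1, Prim2, Rfc2 and Mcm4. The letters of the E2F motif (TTTCCCGC, TTTCGCGC, TTTGGCGC or TTTGCCGC, either strand) were present in windows of 16 of the 41, or 39%, against 2.6% of the 27025 genes with a window. The CCAAT box (CCAAT, either strand) was present in 24 of the 41 (58.5%, against 41.1% of all genes), the E-box bound by MYC (CACGTG) in 8 (19.5%, against 8.09%) and the CHR letters (TTTGAA, either strand) in 7 (17.1%, against 20.2%). A gene with several starts counted once where any window held the letters, and these shares describe letters, not bound sites. The following 3 windows are printed because they belong to the gene that was nearest to 0 in livers, to the MCM2-7 subunit with the highest fold change over liver in the pooled tumors, and to the gene that did not pass the test against liver. Capitals mark the E2F letters, and each sequence is given 5′ to 3′ on the strand of its gene: the Orc1 window is at chr4:108579204-108579503 (plus strand), the Mcm5 window at chr8:75109259-75109558 (plus strand) and the Mcm10 window at chr2:5012742-5013041 (minus strand).
Orc1: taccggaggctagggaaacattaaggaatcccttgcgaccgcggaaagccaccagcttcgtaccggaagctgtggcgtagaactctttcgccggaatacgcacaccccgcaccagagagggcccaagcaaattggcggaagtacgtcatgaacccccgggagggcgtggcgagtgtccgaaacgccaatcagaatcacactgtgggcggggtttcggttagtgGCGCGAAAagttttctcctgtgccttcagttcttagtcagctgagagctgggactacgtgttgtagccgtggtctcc
Mcm5: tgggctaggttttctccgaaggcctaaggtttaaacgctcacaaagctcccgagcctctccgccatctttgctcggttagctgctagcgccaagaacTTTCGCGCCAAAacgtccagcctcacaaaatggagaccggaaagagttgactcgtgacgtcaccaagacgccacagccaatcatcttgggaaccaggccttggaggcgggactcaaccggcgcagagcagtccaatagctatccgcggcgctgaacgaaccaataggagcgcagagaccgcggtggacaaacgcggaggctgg
Mcm10: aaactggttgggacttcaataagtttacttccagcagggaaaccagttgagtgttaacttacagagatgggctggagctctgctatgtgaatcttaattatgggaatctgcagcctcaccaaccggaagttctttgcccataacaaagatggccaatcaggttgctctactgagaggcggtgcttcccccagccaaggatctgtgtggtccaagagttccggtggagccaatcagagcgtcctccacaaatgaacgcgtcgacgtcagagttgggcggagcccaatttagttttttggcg
The Orc1 window held 1 match to the E2F letters, the Mcm5 window 2 matches that overlap each other on opposite strands, and the Mcm10 window 0, beside 3 CCAAT boxes. The Mcm10 window ends in TTTGGCG, the start of the E2F letters TTTGGCGC. A match across that edge could not be counted, and Mcm10 was placed among the genes without the letters. Against liver, the median log2 fold change in the pooled Aldafermin+MYC and FGF19+MYC tumors was 3.50 over the 16 genes with the E2F letters (range 1.11 to 7.44) and 3.09 over the 25 without (range -0.18 to 6.98), ranges that overlap over most of their length.

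The libraries held 18004977 to 66354724 reads on genes. The 5 sgTrp53+MYC libraries were the deepest (at least 54042455 reads) and were deposited in a table of their own, so that group and table cannot be told apart. In 3 libraries, Aldafermin+MYC replicate 5, FGF19+MYC replicate 1 and sgTrp53+MYC replicate 1, transcripts stood apart by length: genes with a canonical transcript under 1000 bases exceeded the median of their group relative to genes of 4000 bases or more by 0.84, 1.12 and 1.32 on the log2 scale, against -0.22 to 0.36 in the other libraries. Counts of calls and medians of the comparisons between tumors are therefore also given without these 3. The targeted gene Trp53 was read at 18.7 to 79.9 CPM in the sgTrp53+MYC group, below the 90.8 to 176 CPM of the other 10 tumors and around the 28.8 to 36.4 CPM of livers; an edited allele can still be transcribed, so the level alone does not show what the guide did.

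The replication genes were higher in tumors than in livers almost without exception. Of the 50, 49 rose in the pooled Aldafermin+MYC and FGF19+MYC tumors and 0 fell (edgeR's quasi-likelihood test over all tested genes, Benjamini-Hochberg adjusted p under 0.05), where 39.2% of all tested genes were called higher. In sgTrp53+MYC tumors 49 rose and 0 fell as well, beside 36.9% of all tested genes called higher. Their median log2 fold change was 3.20 in the former and 3.28 in the latter, about 9.17-fold and 9.72-fold, against 0.096 and 0.071 over all tested genes. For 49 of the 50, every one of the 10 pooled tumor libraries lay above every liver library, as it did for 28.5% of all tested genes. The same count held for the 5 sgTrp53+MYC libraries, against 28.8% of all genes. The gene that did not pass in either comparison was Mcm10. Without the 3 libraries with the length difference the 49 genes still passed in both comparisons, with medians of 3.20 and 3.25. Since both comparisons use the same 5 livers, their counts are not independent of each other.

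**Figure D1:**
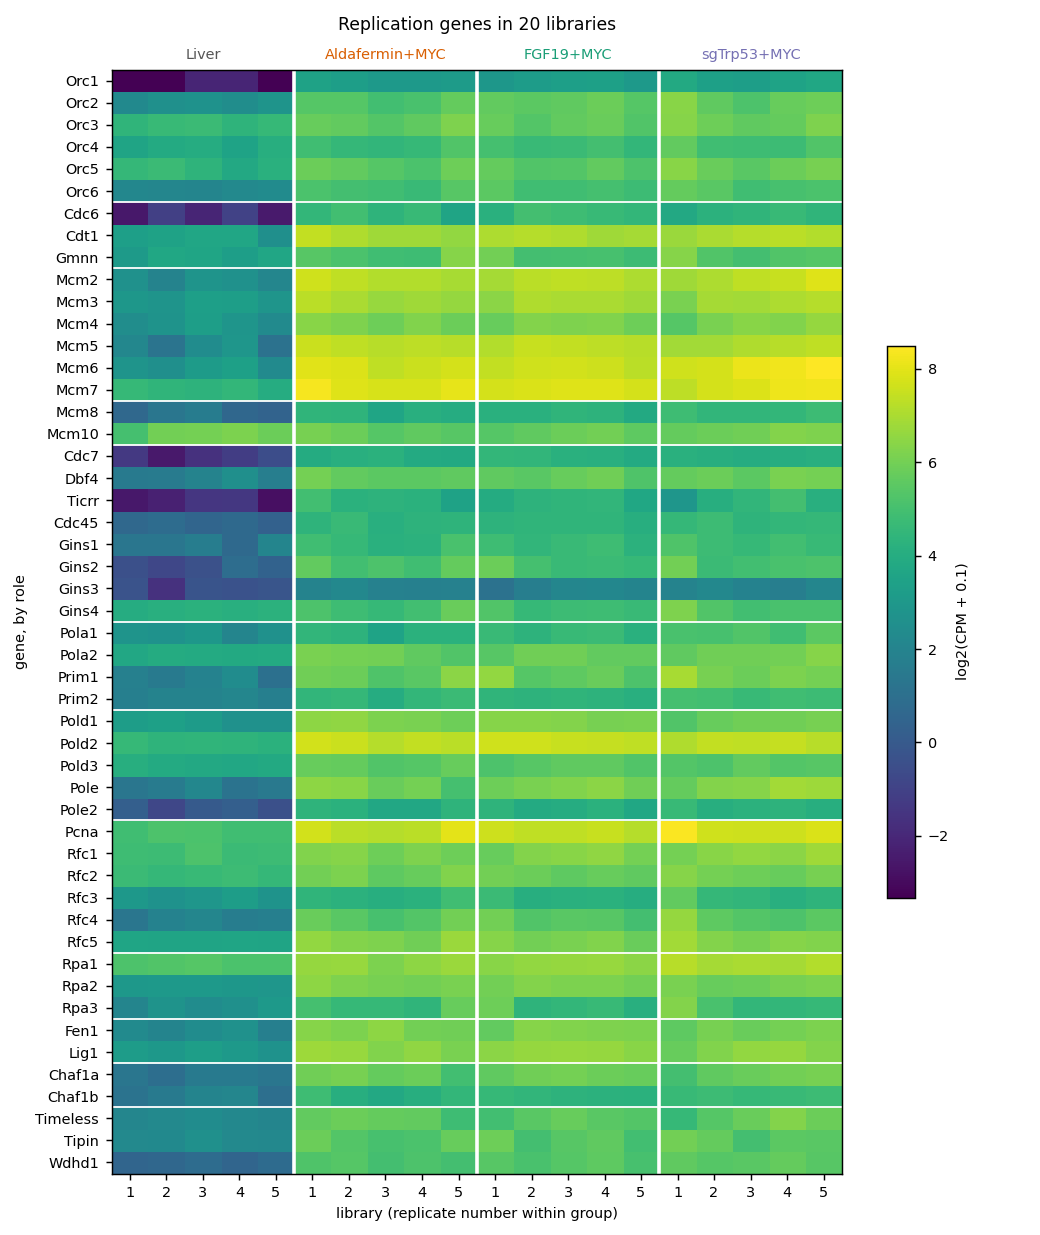
Levels of the 50 replication genes (rows, grouped by role) in the 20 libraries (columns, by group and replicate number), as log2(CPM + 0.1). The liver columns are darker than the tumor columns in every row except that of Mcm10, and Orc1, Cdc6, Ticrr and Cdc7 are close to absent in liver.

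Together, the 50 genes took 0.0319% ± 0.0031 of the reads counted on genes in livers (SD, n = 5), and 0.37% ± 0.041, 0.357% ± 0.038 and 0.415% ± 0.044 in the Aldafermin+MYC, FGF19+MYC and sgTrp53+MYC groups. The lowest tumor library, at 0.314%, lay above the highest liver library, at 0.0372%. Mki67, a marker of cycling cells that is not among the 50, was read at 1.59 to 6.28 CPM in livers and at 74.4 to 199 CPM in the 15 tumors. Hepatocyte markers moved the other way, with all 7 lower in both tumor comparisons: their summed level was 182000 to 225000 CPM in livers, 9330 to 29100 CPM in the Aldafermin+MYC and FGF19+MYC tumors, and 4040 to 11200 CPM in sgTrp53+MYC tumors. Of the 7 markers, 0 were at 0 throughout a group. In bulk RNA, fewer cells of a type and less RNA per cell cannot be told apart, and the part of these shifts in the replication genes was not tested.

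All 6 ORC subunits rose in both tumor comparisons, by amounts that differed widely among them. Orc1, the subunit whose level is known to follow the cell cycle, was counted 0, 0, 3, 2 and 0 times in the 5 livers and 453, 394, 303, 207 and 318 times in the 5 Aldafermin+MYC tumors. Its levels were 7.48, 9.18, 10.2, 10.4 and 7.94 CPM in FGF19+MYC tumors and 14.2, 10.6, 9.85, 11.3 and 13.2 CPM in sgTrp53+MYC tumors. The liver libraries together held 5 reads, which gives a ratio of 190 for Aldafermin+MYC tumors over livers (95% interval 81.2 to 584, from the exact Poisson interval of the liver reads, counting error only). The ratio was 187 for the FGF19+MYC group (80.2 to 576) and 245 for the sgTrp53+MYC group (105 to 755), and the fitted log2 fold changes of 7.44 and 7.82 depend on the prior count that the fit adds. Orc4 had the smallest change of the complex, from 12, 15, 15.9, 11.5 and 17.2 CPM in livers to 29.5, 23.7, 21.8, 24.4 and 39.3 CPM in Aldafermin+MYC, 32.1, 25.7, 26.6, 31.4 and 22.6 CPM in FGF19+MYC and 50, 29.1, 28.1, 27.8 and 38.7 CPM in sgTrp53+MYC tumors. Its highest liver library, at 17.2 CPM, lay below its lowest tumor library, at 21.8 CPM (log2 fold change 0.95 ± 0.17 SE, adjusted p = 6.43e-05 in the pooled tumors, edgeR). Orc2 and Orc6 rose by 2.90 and 2.87 on the log2 scale in the pooled tumors, and Orc3 and Orc5 by 1.11 and 1.17.

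The factors that load the helicase rose together with their inhibitor. Cdc6, the ATPase that joins ORC in loading, was counted 1, 10, 3, 6 and 2 times in the 5 livers, and its levels were 22.6, 30.3, 20.5, 25.1 and 11.8 CPM in Aldafermin+MYC, 18, 31.2, 28.1, 25.2 and 22.8 CPM in FGF19+MYC and 14.1, 19.5, 21.1, 24.5 and 21.5 CPM in sgTrp53+MYC tumors. The ratio to liver was 104 (95% counting interval 68.7 to 166), 118 (77.9 to 188) and 94.8 (62.6 to 151) in these groups. Cdt1, its partner in loading, rose from 10.5 ± 2.9 CPM in livers (SD, n = 5) to 125.5 ± 29, 129.8 ± 14 and 135 ± 18 CPM in Aldafermin+MYC, FGF19+MYC and sgTrp53+MYC tumors, a log2 fold change of 3.60 ± 0.20 SE in the pooled tumors and 3.69 ± 0.21 SE in sgTrp53+MYC tumors. Gmnn, which encodes the Cdt1 inhibitor geminin, rose by 1.84 ± 0.29 SE and 2.05 ± 0.32 SE on the log2 scale (adjusted p = 1.26e-05 and 1.28e-05, edgeR). It was read at 8.68, 13, 12.1, 9.63 and 12.8 CPM in livers, 42.3, 35.9, 29.5, 28.4 and 81.2 in Aldafermin+MYC, 64.1, 30.8, 31.9, 33.3 and 27.6 in FGF19+MYC and 82.1, 39, 31.2, 38.6 and 41.4 in sgTrp53+MYC tumors. The highest Gmnn value of each tumor group fell in 1 of the 3 libraries with the length difference. The canonical Gmnn transcript has 963 bases and the longest annotated one 2531, and the part of length in these values was not tested.

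The 6 subunits of the MCM2-7 helicase rose by 3.36 to 5.25 on the log2 scale in the pooled tumors and by 3.46 to 5.20 in sgTrp53+MYC tumors. Mcm5, which rose most in the pooled tumors, was read at 4.38, 2.27, 5.3, 7.38 and 2.11 CPM in livers, 188, 168, 148, 158 and 152 in Aldafermin+MYC, 139.8, 179, 171, 159.5 and 149 in FGF19+MYC and 116, 117, 138, 152 and 162.5 in sgTrp53+MYC tumors (38-fold over liver in the pooled tumors and 32.3-fold in sgTrp53+MYC tumors, adjusted p = 3.61e-12 and 1.4e-11, edgeR). The Mcm5 promoter window, printed above, holds the overlapping pair of E2F matches. The Mcm6 window holds 3 matches and the Mcm2 window 0, and the part of these letters in the changes was not tested. Mcm4, at the bottom, was read at 5.45, 6.6, 9.76, 6.97 and 5.02 CPM in livers, 83.2, 75.1, 58.5, 76.8 and 58 in Aldafermin+MYC, 53.7, 78.9, 74.1, 76.2 and 59.2 in FGF19+MYC and 42.1, 70.1, 83.7, 76.9 and 99.5 in sgTrp53+MYC tumors, 10.2-fold and 11-fold over liver. Its lowest tumor library (42.1 CPM) stood well above its highest liver library (9.76 CPM). Mcm8, an MCM protein outside the hexamer that acts in recombination, rose by 3.19 ± 0.22 SE and 3.64 ± 0.23 SE.

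Mcm10, an initiation factor that binds the activated helicase but is no part of the ring, was the exception. It was read at 32.4, 63.6, 66.2, 72 and 57.3 CPM in livers, 66.5, 56.9, 41.3, 48.4 and 42.8 in Aldafermin+MYC, 41.5, 49.6, 56.5, 63.9 and 47.8 in FGF19+MYC and 51.5, 58, 62, 79.4 and 74.5 in sgTrp53+MYC tumors. The tumor libraries spread over the range of the livers, up to 79.4 CPM, and 1 liver library, replicate 1 at 32.4 CPM, lay below all others. The log2 fold change was -0.18 ± 0.17 SE in the pooled tumors (95% confidence interval -0.53 to 0.17, adjusted p = 0.341, edgeR) and 0.16 ± 0.19 SE in sgTrp53+MYC tumors (interval -0.25 to 0.56, adjusted p = 0.478), intervals that leave out a rise of 1 log2 unit. Without Liver replicate 1 the log2 fold change in the pooled tumors was -0.34 (adjusted p = 0.0414), so that the call against liver depends on this library. Its exons (19 merged blocks on chromosome 2 from 4994516 to 5017629, minus strand, GRCm39) overlap those of no other annotated gene.

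**Figure D2:**
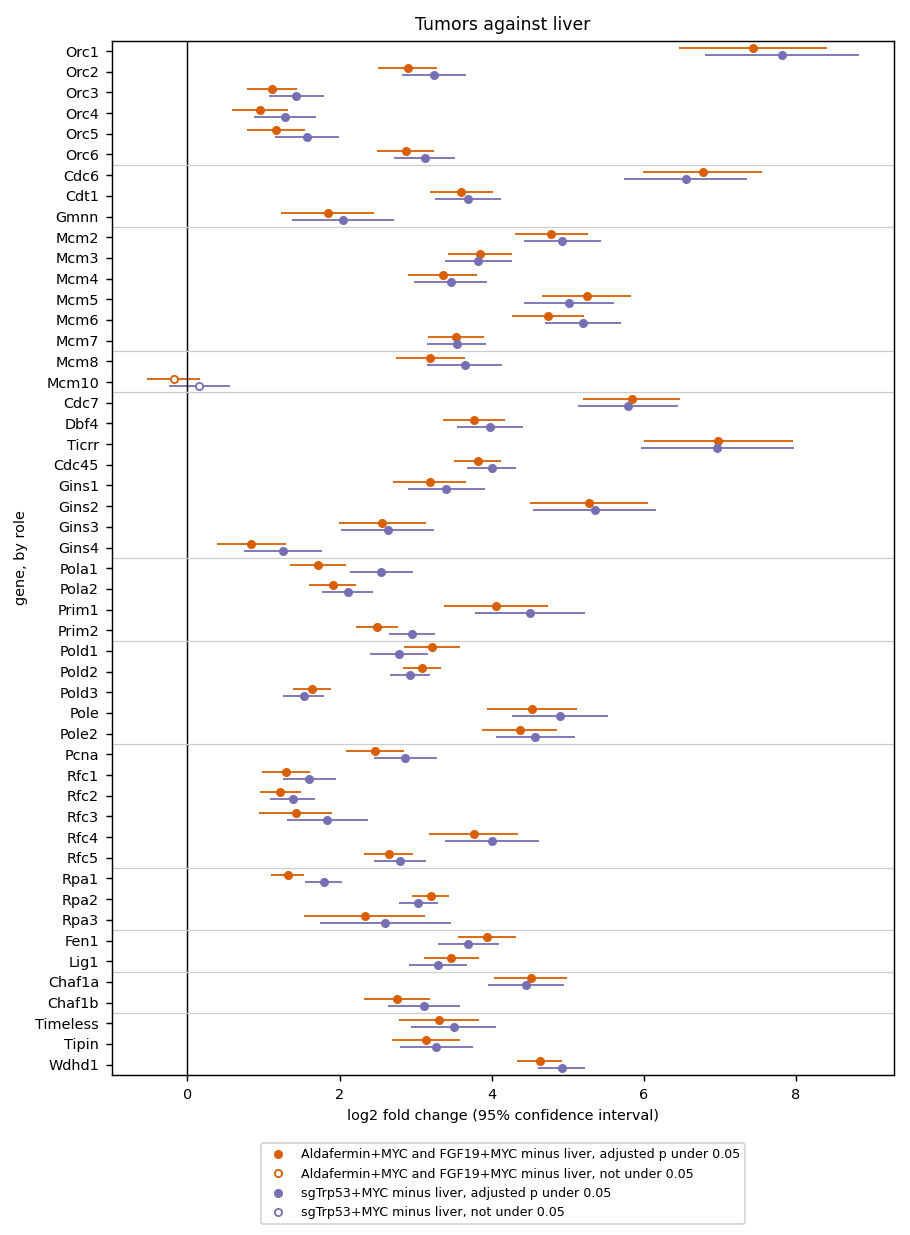
Log2 fold change against liver of each of the 50 genes, with its 95% confidence interval, for the pooled Aldafermin+MYC and FGF19+MYC tumors and for sgTrp53+MYC tumors; filled points have an adjusted p under 0.05. All points lie to the right of 0 except the pooled value of Mcm10 at -0.18, and Mcm10 has the only open points.

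Among the origin firing factors all 8 rose in both comparisons. Ticrr (treslin), which brings initiation factors to the loaded helicase, was counted 1, 3, 6, 4 and 1 times in the 5 livers, and its levels were 30.4, 18.4, 19.7, 18.7 and 11.1 CPM in Aldafermin+MYC, 15.4, 19.6, 21.4, 21.8 and 13 CPM in FGF19+MYC and 7.26, 16.7, 21.9, 30.7 and 17.4 CPM in sgTrp53+MYC tumors. Its ratio to liver was 136 (82.3 to 243), 126 (76.4 to 225) and 130 (78.6 to 232) in these groups, with 95% counting intervals. Cdc7, the kinase that phosphorylates the loaded MCM ring, had 2 to 15 reads per liver library and rose with ratios of 54.0 (38.1 to 79.5), 63.0 (44.4 to 92.8) and 56.5 (39.8 to 83.1) in the same order. Its partner Dbf4 rose by 3.77 ± 0.20 SE and 3.97 ± 0.21 SE on the log2 scale, and Cdc45 by 3.81 ± 0.14 SE and 4.00 ± 0.15 SE. The 4 subunits of the GINS complex, which joins Cdc45 and the MCM ring in the active helicase, were among both the largest and the smallest changes. Gins2 rose by 5.28 ± 0.37 SE in the pooled tumors and Gins4 by 0.84 ± 0.22 SE (adjusted p = 0.00169), with Gins1 at 3.19 and Gins3 at 2.56. Gins4 was read at 15.6, 17.7, 18.5, 17.4 and 19.3 CPM in livers, 36.1, 28.4, 24, 30.1 and 55.4 in Aldafermin+MYC, 39.4, 24.1, 27, 28 and 25.9 in FGF19+MYC and 74.3, 39.1, 30.3, 33.8 and 34.4 in sgTrp53+MYC tumors, and Gins2 at 0.645, 0.477, 0.663, 1.78 and 1.2 CPM in livers against 24.3 to 63.2 CPM across the 15 tumors. Of the Gins2 exon bases, 67.3% lie opposite exons of Gse1, so that without strand information their reads could not be separated.

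All 9 subunits of the polymerases rose in both comparisons. Prim1, the catalytic subunit of primase, rose most in its complex, from 3.44, 2.82, 3.62, 5.33 and 1.95 CPM in livers to 37.1 to 124 CPM in the tumors (log2 fold change 4.06 ± 0.32 SE and 4.51 ± 0.35 SE). Pola1, the catalytic subunit of polymerase alpha, rose by 1.72 ± 0.18 SE in the pooled tumors and 2.55 ± 0.20 SE in sgTrp53+MYC tumors. Pole, the catalytic subunit of the leading strand polymerase epsilon, rose from 2.91 ± 0.87 CPM (SD, n = 5) to 65 ± 23, 70.7 ± 11 and 87.3 ± 25 CPM in Aldafermin+MYC, FGF19+MYC and sgTrp53+MYC tumors (23.1-fold and 29.8-fold). Its partner Pole2 followed at 4.37 and 4.57 on the log2 scale. The delta subunits rose by 3.21 (Pold1, catalytic), 3.09 (Pold2) and 1.64 (Pold3) in the pooled tumors and by 2.78, 2.92 and 1.53 in sgTrp53+MYC tumors. Pold3, the lowest of them, was read at 16.9, 14.8, 14, 13.7 and 14.2 CPM in livers and at 36.4 to 53.3 CPM in the tumors.

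At the fork, Pcna rose from 29.4, 36.3, 35.6, 29.4 and 28.9 CPM in livers to 207, 154, 143, 153 and 258 in Aldafermin+MYC, 196.5, 163, 163, 179.5 and 145 in FGF19+MYC and 349.5, 198, 194, 193.5 and 226 in sgTrp53+MYC tumors, 5.52-fold and 7.27-fold over liver. Of the 5 subunits of its loader, Rfc4 rose most (3.76 ± 0.28 SE in the pooled tumors, from 3.34 ± 0.68 CPM in livers, SD, n = 5) and Rfc2 least (1.22 ± 0.13 SE, from 25 ± 1.9 CPM), and the highest liver library of each lay below its lowest tumor library (4.2 against 31.3 CPM for Rfc4, 27.4 against 47.2 CPM for Rfc2), with Rfc1, the large subunit, at 1.30, Rfc3 at 1.42 and Rfc5 at 2.65. The RPA heterotrimer was likewise uneven, with Rpa1, its large DNA-binding subunit, at 1.32 ± 0.11 SE and 1.79 ± 0.12 SE, Rpa2 at 3.20 ± 0.12 SE and 3.04 ± 0.12 SE, and Rpa3 at 2.33 ± 0.38 SE and 2.60 ± 0.41 SE. Rpa2 was read at 7.89, 8.06, 8.04, 7.51 and 7.41 CPM in livers and 53 to 88.8 CPM in the tumors. Fen1, the flap nuclease, and Lig1, the ligase of Okazaki fragments, both rose (3.94 ± 0.18 SE and 3.47 ± 0.17 SE in the pooled tumors, 3.69 ± 0.19 SE and 3.29 ± 0.18 SE in sgTrp53+MYC tumors). Fen1 was read at 4.88, 4, 5.3, 6.15 and 3.35 CPM in livers and 47.1 to 89.3 CPM in the tumors, and Lig1 at 9.25, 7.74, 9.85, 8.2 and 6.33 CPM in livers and 53.4 to 109 CPM in the tumors, without overlap in either case.

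Behind the fork, the CAF-1 subunits rose by 4.51 ± 0.23 SE (Chaf1a) and 2.76 ± 0.21 SE (Chaf1b) in the pooled tumors and by 4.45 ± 0.24 SE and 3.11 ± 0.23 SE in sgTrp53+MYC tumors. Chaf1a was read at 2.37, 1.83, 2.78, 2.73 and 2.39 CPM in livers and 29.8 to 67.3 CPM in the tumors, and Chaf1b at 2.15, 2.75, 3.93, 4.23 and 1.91 CPM in livers and 13.9 to 28.1 CPM in the tumors. Wdhd1 (And-1), which ties polymerase alpha to the helicase, had the smallest adjusted p of the 50 genes in both comparisons. It was read at 1.36, 1.43, 1.72, 1.37 and 1.67 CPM in livers, 37.3, 41.8, 31.5, 36.3 and 31.6 in Aldafermin+MYC, 42.4, 34.5, 41.6, 46.6 and 33.5 in FGF19+MYC and 49.1, 41.6, 44.1, 52.5 and 42.9 in sgTrp53+MYC tumors, 24.8-fold and 30.2-fold over liver (adjusted p = 1.17e-14 and 9.69e-15, edgeR). Its values were tightly grouped in livers and in each tumor group. Timeless and Tipin, which form the complex that protects paused forks, rose by 3.31 ± 0.25 SE and 3.14 ± 0.22 SE in the pooled tumors. Tipin was read at 4.59, 4.8, 5.92, 4.64 and 4.46 CPM in livers and 30.1 to 63.3 CPM in the tumors.

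Levels per exon length, CPM divided by the merged exon length in kilobases, allowed subunits of a complex to be set beside each other. In livers, Orc1 was at 0.0094 ± 0.013 (SD, n = 5) on this scale, where Orc2 to Orc6 had means of 0.989 to 2.77. In the tumors Orc1 had means of 1.57 to 2.06, below those of the other 5 subunits in each group, and Orc6 had the highest means, 13.0 to 15.5. The ratio of the highest to the lowest subunit mean was 296 in livers, where it rests on the 5 reads of Orc1, and 8.19 in Aldafermin+MYC, 8.26 in FGF19+MYC and 7.51 in sgTrp53+MYC tumors. Which subunit stood highest depended on the length used, whereas Orc1 was lowest under all 3 lengths tried. Within the helicase, Mcm7 was at 3.70 ± 0.59 in livers and Mcm5 lowest at 0.627 ± 0.32. Mcm4 had the lowest mean in each tumor group, 12.8 to 13.9, and Mcm7 the highest in Aldafermin+MYC (45.3 ± 7.7) and FGF19+MYC tumors (40.5 ± 2.5). In sgTrp53+MYC tumors Mcm6 had the highest mean, 50.1 ± 12 (though not with the longest transcript as the length), beside Mcm7 at 43.0 ± 11, a difference within the spread of the libraries.

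**Figure D3:**
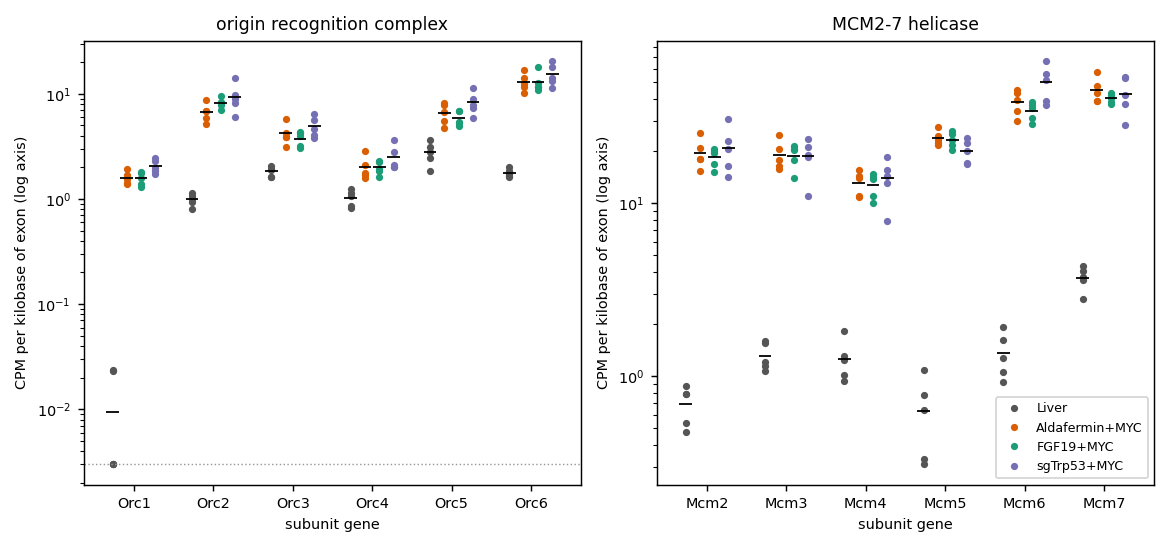
CPM per kilobase of exon, on a log axis, of the ORC subunits (left) and the MCM2-7 subunits (right) in each library (points) with the group mean (bar); libraries with 0 reads are drawn on the dotted line. Orc1 in livers sits apart from every other subunit, 3 of its 5 liver libraries having 0 reads, and the tumor means of the other genes lie above those of liver.

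Between tumor groups the differences were small. Of the 50 genes, 5 passed the test between the pooled Aldafermin+MYC and FGF19+MYC tumors and the sgTrp53+MYC tumors, beside 23.7% of all tested genes. Pold1 was higher in the pooled tumors (11.6% of all tested genes were called higher), and Pola1, Prim2, Rpa1 and Wdhd1 were lower (12.1% were called lower). The log2 difference was negative for 38 of the 50 genes, with a median of -0.20, where 51.8% of all tested genes were negative with a median of -0.022. Without the 3 libraries with the length difference it was negative for 41, with a median of -0.23, against -0.049 over all tested genes. For 49 of the 50 genes the 95% confidence interval lay within 1 log2 unit of 0; Pola1 was the exception. By role, all 6 ORC subunits had negative values, from -0.41 (Orc5) to -0.25 (Orc6). With the offsets for GC content and exon length 3 of the 6 turned slightly positive (Orc3 0.0063, Orc4 0.18 and Orc5 0.025). With these offsets 33 of the 50 genes were negative, Pold2 newly so. Pcna was at -0.40 and the 5 RFC subunits were between -0.42 (Rfc3) and -0.15 (Rfc5), negative with the offsets as well. Of these 12 genes, 0 were among the 5 that passed the test. With the offsets, Pcna passed as lower (-0.33, adjusted p = 0.0266, edgeR). So did Pola2 (-0.30, adjusted p = 0.0209, edgeR), which is also outside the 5. The 3 delta subunits among the 50 genes were positive (Pold2 0.17, or -0.0096 with the offsets, and Pold3 0.11 beside Pold1). Fen1 (0.24) and Lig1 (0.18) were positive as well. The MCM2-7 subunits were on both sides, from -0.46 (Mcm6) to 0.23 (Mcm5). Mcm6 lay near the threshold (adjusted p = 0.0525, edgeR) and passed it as lower in 7 of the 10 alternative settings and in 6 of the 20 fits that left out a library.

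**Figure D4:**
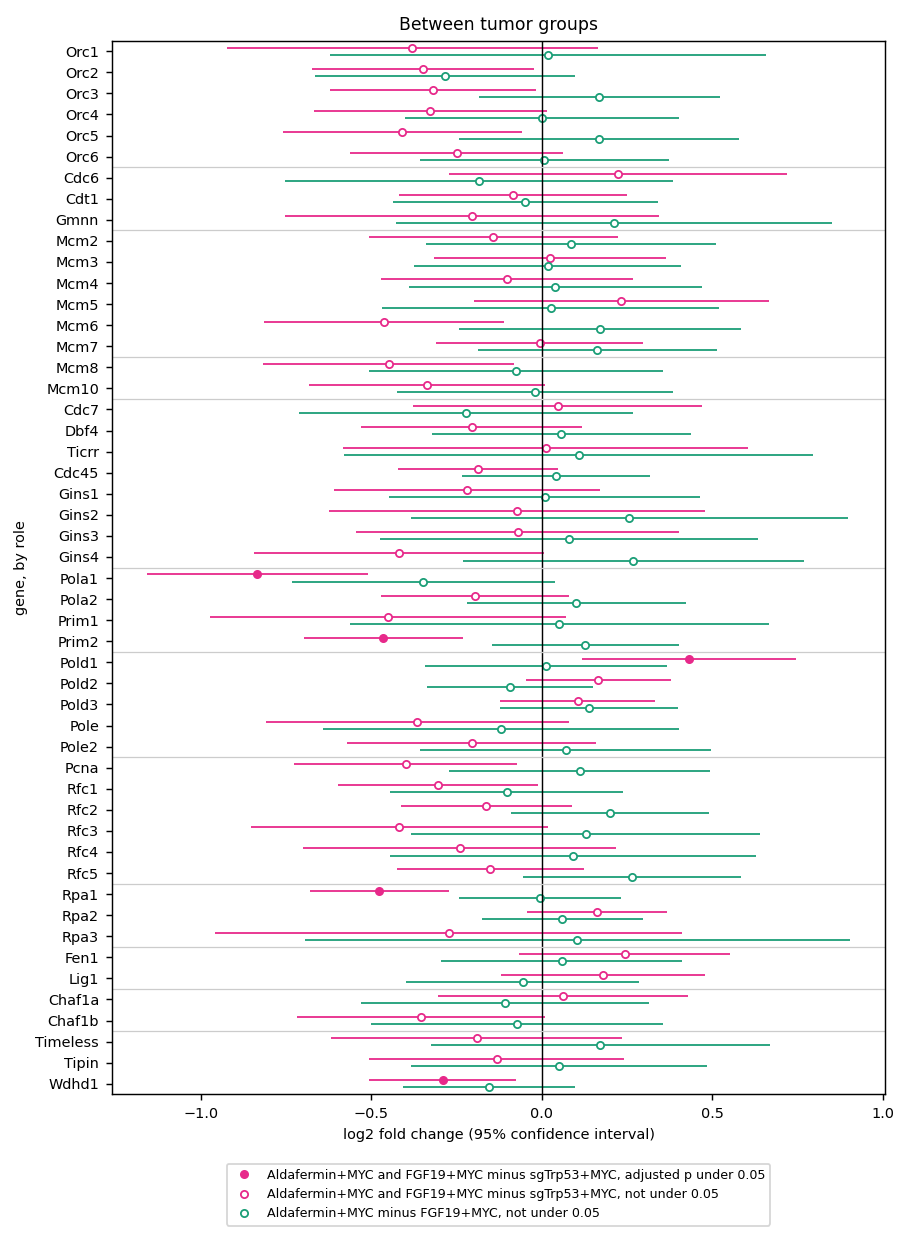
Log2 fold change with 95% confidence interval of the 50 genes between the pooled Aldafermin+MYC and FGF19+MYC tumors and sgTrp53+MYC tumors, and between Aldafermin+MYC and FGF19+MYC tumors; filled points have an adjusted p under 0.05. The 5 filled points belong to the first comparison, with Pola1 farthest from 0 at -0.83, and all points of the second lie between -0.35 and 0.27.

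Pola1 was read at 22.1, 19.6, 11.5, 18.7 and 18.9 CPM in Aldafermin+MYC, 26.1, 20.1, 24.6, 26.8 and 17.9 CPM in FGF19+MYC and 34.4, 33.7, 39, 29.7 and 45.7 CPM in sgTrp53+MYC tumors, against 6.74, 6.42, 7.51, 4.1 and 6.29 CPM in livers. Every sgTrp53+MYC library lay above all 10 of the others (lowest 29.7 CPM against a highest of 26.8 CPM), and the log2 difference was -0.83 ± 0.16 SE (adjusted p = 0.00087, edgeR). With offsets for GC content and exon length it was -0.36 (adjusted p = 0.0428, edgeR), so that its size depended on this correction. The longest annotated transcript of Pola1 has 37.5% GC. Pola1 lies on chromosome X from 92348365 to 92675813, minus strand, in GRCm39. Rpa1 was read at 99.7, 101, 71.3, 90.3 and 107 CPM in Aldafermin+MYC, 84.8, 96.7, 100.2, 101 and 88.3 in FGF19+MYC and 150.4, 119.9, 126, 119 and 139 in sgTrp53+MYC tumors, again without overlap (log2 difference -0.48 ± 0.097 SE, adjusted p = 0.0018). Pola1 and Rpa1 passed under every alternative setting and with each library left out. Besides these, Mcm8 did not overlap (12.3 to 20.9 and 14.6 to 21 against 21.7 to 28.3 CPM) but missed the threshold (log2 difference -0.45 ± 0.18 SE, adjusted p = 0.0705); 2.42% of all tested genes were lower without overlap in the pooled tumors.

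Prim2, the large subunit of primase, was read at 21.7, 23, 15.8, 22.3 and 26.3 CPM in Aldafermin+MYC, 21.4, 20.1, 21.3, 19.7 and 17.3 in FGF19+MYC and 32.7, 30.3, 24.9, 29.1 and 27 in sgTrp53+MYC tumors (log2 difference -0.47 ± 0.11 SE, adjusted p = 0.00569, edgeR). The groups overlapped through 1 library, Aldafermin+MYC replicate 5, and the call was lost with the offsets for GC content and exon length (-0.24, adjusted p = 0.0754). Wdhd1, whose values by library are given above, differed by -0.29 ± 0.10 SE (adjusted p = 0.0474) with overlapping groups, and the call was kept in 5 of the 20 fits that left out a library and lost with the offsets (-0.14, adjusted p = 0.28). Pold1 was read at 88.6, 93.2, 71.3, 70 and 59.9 CPM in Aldafermin+MYC, 82.4, 81.3, 78.1, 68.3 and 69.6 in FGF19+MYC and 38.9, 53.9, 62.1, 61.1 and 66.5 in sgTrp53+MYC tumors (log2 difference 0.43 ± 0.15 SE, adjusted p = 0.0426), and its call was kept in 11 of the 20 and in 5 of the 10 alternative settings. It was lost with the offsets (0.39, adjusted p = 0.0563), without the filter on low counts (0.33, adjusted p = 0.178) and in 3 further settings. Its lowest value in each of the Aldafermin+MYC and sgTrp53+MYC groups came from a library with the length difference, and so did its highest value in the FGF19+MYC group. Without the 3 libraries with the length difference, 11 genes passed, 0 of them higher in the pooled tumors, where 31.9% of all tested genes passed (18.6% lower): Pola1, Prim2, Rpa1 and Wdhd1 remained lower, Pold1 was no longer called (0.30, adjusted p = 0.0991), and Orc3, Orc6, Mcm6, Gins4, Prim1, Pcna and Rfc1 were then called lower. Leaving out Aldafermin+MYC replicate 5 alone gave 12 calls (beside 26.5% of all tested genes). With both directions counted, the share of the 50 genes was below that of all genes in both fits. Among lower calls alone it was above: 11 of the 50 in each fit, against 18.6% and 15.4% of all tested genes.

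**Figure D5:**
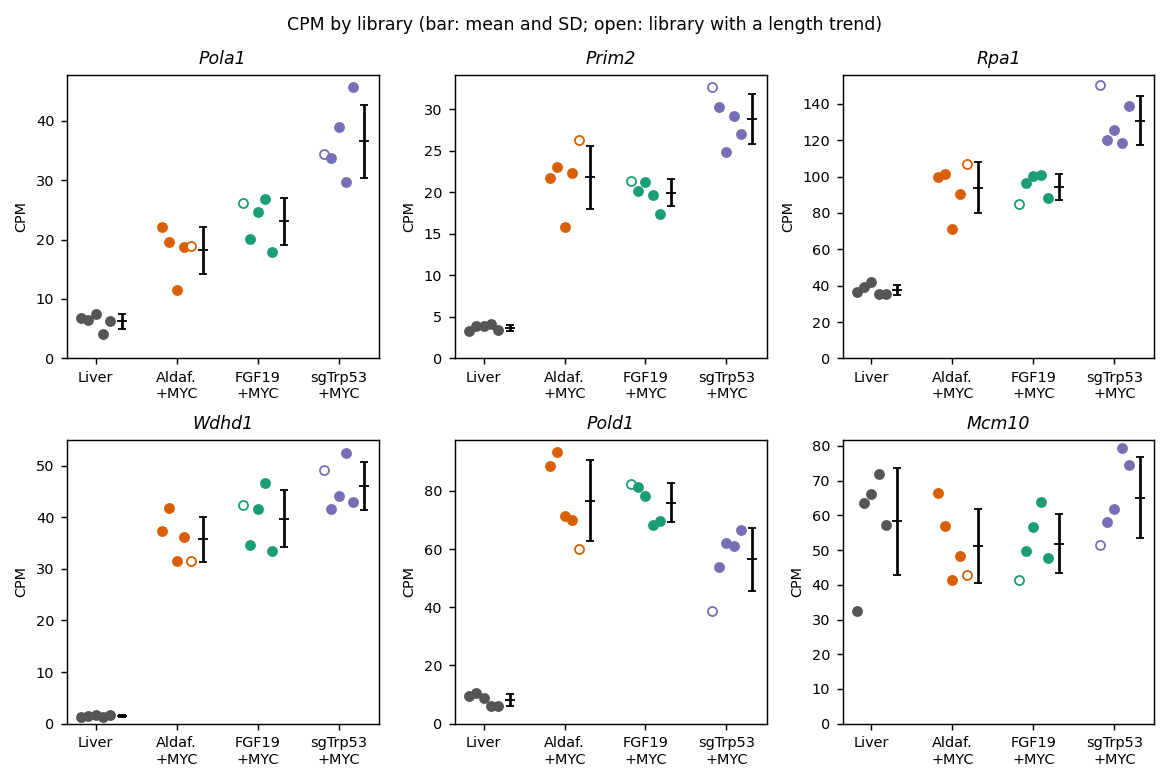
CPM of Pola1, Prim2, Rpa1, Wdhd1, Pold1 and Mcm10 in each of the 20 libraries (points) with the mean and SD of each group of 5 (bars); open points are the 3 libraries with the length difference. The sgTrp53+MYC points lie above the other tumor points for Pola1 and Rpa1, and the Mcm10 points of livers and tumors overlap.

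Values of the libraries moved with this comparison. Reads that fell on more than 1 gene made up 11.1% to 14.6% of the records in the sgTrp53+MYC table and 3.03% to 6.3% in the others. Reads that were not aligned made up 5.34% to 6.82% against 15.3% to 34.0%, and reads of low alignment quality 5.88% to 8.57% against 8.99% to 14.3%, so that the sgTrp53+MYC libraries stood apart in all 3. Exons opposite to those of other genes make up over 50% of exon bases in 3 of the 50 genes (Gins2, Fen1 and Chaf1a), none of which was called, and at most 3.85% in the 5 that were. Over the 13847 tested genes with annotated exons the median log2 difference was 0.013 for genes without such overlap (5788 genes), -0.046 for those up to 50% (7679 genes) and 0.071 for those over 50% (380 genes). Summed macrophage markers ranged from 83.7 to 305 CPM in Aldafermin+MYC, 114 to 232 in FGF19+MYC and 56.4 to 104 CPM in sgTrp53+MYC tumors, with 4 of the 6 markers higher in the pooled tumors. The 4 cholangiocyte markers were all lower in the pooled tumors. Their sum ranged from 0.64 to 312 CPM among sgTrp53+MYC tumors and from 0.0496 to 5.98 CPM among the other tumors. The median sum was 3.15 CPM in sgTrp53+MYC, 1.63 CPM in Aldafermin+MYC and 1.91 CPM in FGF19+MYC tumors, so that most sgTrp53+MYC libraries lay far below the highest. The fetal liver genes Afp and Gpc3 were higher in the pooled tumors (2.45 and 1.01, adjusted p = 0.00567 and 0.0299, edgeR), and of the 7 hepatocyte markers 3 were higher and 1 lower. Mki67 differed by -0.19 (adjusted p = 0.643). The part of these values in the differences was not tested.

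Between Aldafermin+MYC and FGF19+MYC tumors, 0 of the 50 genes passed the test, as did 0 of all tested genes (0.0% in either direction with edgeR's quasi-likelihood test; at an unadjusted p under 0.05 there were 1048 genes, or 7.31%, and 0 of the 50). DESeq2 and edgeR's likelihood ratio test called 96 and 59 genes in all, and 0 of the 50. The median log2 difference was 0.05, against 0.022 over all tested genes. Pola1 had the lowest value, -0.35 (95% confidence interval -0.73 to 0.039), and Gins4 the highest, 0.27 (-0.23 to 0.77). All 50 intervals lay within 1 log2 unit of 0, from -0.75 at the lowest bound (Cdc6) to 0.90 at the highest (Rpa3), so that differences of 1 log2 unit lie outside them and smaller ones may have gone undetected in these 10 libraries. The MCM2-7 subunits had intervals from -0.47 to 0.58. Both groups contain a library with the length difference, and without these the median was 0.008 with 0 calls.

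Other genes of DNA replication, from a list of 26 nuclear factors outside the 50, were mostly higher in tumors as well. Of the 25 that passed the filter on low counts, 23 rose and 1 fell in the pooled tumors (median log2 fold change 2.44), and 22 rose and 1 fell in sgTrp53+MYC tumors (2.66). Over all tested genes 39.2% rose and 34.5% fell in the former and 36.9% and 33.0% in the latter. Clspn, the checkpoint adaptor claspin, rose most, by 6.39 and 6.88. Pold4, the smallest subunit of polymerase delta, fell by 1.52 and 2.16 on the log2 scale (adjusted p = 2.77e-04 and 7.34e-05, edgeR) while Pold1, Pold2 and Pold3 rose. Mcm9, the partner of Mcm8, was at 0.19 and 0.34 (adjusted p = 0.321 and 0.13). Between the pooled and sgTrp53+MYC tumors, 2 of the 25 were lower, beside 12.1% of all tested genes. These were Pole3, a histone-fold subunit of polymerase epsilon (-0.66, adjusted p = 5.07e-04, edgeR), and Rif1 (-0.40, adjusted p = 0.0249, edgeR), a regulator of the timing of origin firing.

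The mitochondrial replication genes had smaller median changes. Of 10, 7 rose in the pooled tumors and 8 in sgTrp53+MYC tumors, 0 fell, and their medians were 0.71 and 0.92 on the log2 scale. Over all tested genes 39.2% and 36.9% rose and 34.5% and 33.0% fell in these comparisons. Ssbp1, the mitochondrial single-strand binding protein, rose most in the pooled tumors (1.42), whereas Polg, the catalytic subunit of the mitochondrial polymerase, was at 0.074 and -0.38 (adjusted p = 0.667 and 0.0562). Of the 10 polymerases of repair and lesion bypass, 5 rose and 2 fell in the pooled tumors, and 5 rose and 1 fell in sgTrp53+MYC tumors, beside the 39.2% and 36.9% of all tested genes that rose. Polq, which encodes the polymerase of end joining, rose by 5.88 and 6.17, and Mad2l2, a subunit of polymerase zeta, fell by 2.21 and 2.17. Between the pooled and sgTrp53+MYC tumors, Polg was higher (0.46) and Primpol, Mgme1 and Twnk were lower (-0.76, -0.74 and -0.51), and of the repair and bypass list Poli was lower (-0.65). Of all tested genes 11.6% were called higher and 12.1% lower in that comparison. Between the FGF19+MYC tumors and those with the analog, 0 genes of the 3 lists were called.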

How the data were processed

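Poly(A)-selected RNA of 20 livers and liver tumors was sequenced with a stranded kit. The authors aligned reads with HISAT2 to Mm39 and counted them per gene of NCBI RefSeq with htseq-count, per the study's methods; the strand setting is not given in the sources used here, and the submitters' notes also name bcl2fastq 2.20.0.422. The deposited values are raw counts per gene in 2 tables, and 0 sample columns were unused. Rows that name no gene were left out of library sizes.

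Groups came from the sample labels. All 20 libraries entered 1 model in edgeR 4.0.16 (R 4.3.3), with TMM scaling, at least 1 CPM in at least 5 libraries and the quasi-likelihood test, adjusted by Benjamini-Hochberg over 14333 genes at 0.05. The 4 comparisons were the pooled Aldafermin+MYC and FGF19+MYC tumors against livers and against sgTrp53+MYC tumors, sgTrp53+MYC tumors against livers, and Aldafermin+MYC against FGF19+MYC tumors. The script was tested on simulated data. Alternatives included DESeq2 1.42.0, other scalings and filters, and leaving out each library.

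The 50 genes, the other lists and the tests were chosen with earlier results of these data known. By rule, all 50 genes could be named, and values were given for the genes with the highest and lowest change against liver in each role, those past the threshold between tumor groups, those not past it against liver and those at or under 3 counts in every library of a group; of other lists, the highest and lowest genes. Genes with values beyond these were chosen after their values were seen. Counting intervals cover counting error only. Gene positions and exon lengths are from GENCODE on GRCm39, and promoter windows from RefSeq on GRCm38.p6; the builds were not mixed.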

Additional observations from a re-analysis of the deposited data

Results flagged for a closer look

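In 21 of 200 groups of 5 libraries (50 genes in 4 groups), 1 library lay far from the other 4 by Dixon's test at its 95% critical value, where chance gives about 10. They involve 15 of the replication genes. In sgTrp53+MYC replicate 1, Gmnn was high at 82.1 CPM, Gins2 at 63.2, Gins4 at 74.3, Prim1 at 124 and Pcna at 349.5. The same library was high for 4 subunits of the clamp loader and RPA, Rfc3 (50.7 CPM), Rfc4 (99.8), Rfc5 (115.6) and Rpa3 (78.4). In FGF19+MYC replicate 1, Orc6 was high at 45.4 CPM, Gmnn at 64.1, Gins2 at 56.6, Gins4 at 39.4, Rfc3 at 26.6 and Rpa3 at 60.1, and Fen1 was low at 50.1. In Aldafermin+MYC replicate 5, Gmnn was high at 81.2 CPM and Timeless low at 28.5. These 3 libraries hold 18 of the 21 values. They are the libraries in which short transcripts were high and long ones low: the 15 replication genes under 2000 bases lay 0.46 to 0.53 above the group median (log2), and the 16 of 4000 bases or more 0.19 to 0.35 below it. The part of transcript length in these values was not tested. Among livers, Gins3 was low in replicate 2 (0.22 CPM), and Rfc1 (36.3 CPM) and Tipin (5.92 CPM) were high in replicate 3.

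For the 5 genes that passed the test of the pooled tumors against sgTrp53+MYC tumors, the change from liver also differed. The differences were -0.83 for Pola1, -0.465 for Prim2, 0.43 for Pold1, -0.48 for Rpa1 and -0.29 for Wdhd1 (log2, pooled minus sgTrp53+MYC). Since both changes are taken from the same livers, these are the differences of that test and not a separate result.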

How the results depend on the processing

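Against livers, 49 of the 50 genes were called in both comparisons under all 10 alternative settings and with each library left out, except that without Liver replicate 1 Mcm10 was also called lower in the pooled tumors, for 50. Between Aldafermin+MYC and FGF19+MYC tumors 0 were called throughout. Between the pooled and sgTrp53+MYC tumors the 5 calls became 9 with DESeq2, 11 without the 3 libraries with the length difference (a setting added after seeing the data) and 3 with a replicate block. With 1 library left out there were 3 to 12 calls: 12 without Aldafermin+MYC replicate 5, and 3 without FGF19+MYC replicate 2, FGF19+MYC replicate 3 or sgTrp53+MYC replicate 4. The remaining settings gave 4 to 6, with 0 or 1 higher and 3 to 11 lower over all of them; the causes were not tested. Without the filter on low counts the median log2 difference over all genes of this comparison moved from -0.022 to -0.13 and that of the 50 genes from -0.20 to -0.31. The replicate numbers were not used as pairs in the model. Of 30 pairs of libraries with the same number, 6 had deviations correlated over 0.1 (range -0.33 to 0.33). Pairs with different numbers were not compared, so these correlations cannot show whether the numbers pair samples. Of 6000 values of single genes under the alternatives, 5930 kept their side of the threshold, 34 no longer passed it and 36 newly passed it. The sign changed in 164, all uncalled: 117 between Aldafermin+MYC and FGF19+MYC tumors, 46 between the pooled and sgTrp53+MYC tumors and 1 (Mcm10) against liver. Deeper counts would narrow the ratios of Orc1, Cdc6, Ticrr and Cdc7 to liver, where few liver reads were counted.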
